A study of Mus musculus with 2 samples.

Results

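Among Sox1-GFP+ cells sorted from the tail of mice, 172 of 1964 kept cells (8.76%, exact Clopper-Pearson 95% interval 7.54 to 10.1) carried many molecules of collagen I and III and are called tail fibroblast-like cells here. They were chosen by 3 genes: a kept cell was a member when its molecules of Col1a1, Col1a2 and Col3a1 summed to 10 or more. The other 1792 kept tail cells served as the comparison, and the whole series held 9952 kept cells. The study compared Sox1-GFP+ cells of postnatal tail with those of adult brain, with 1 library from each tissue. The mice were Sox1-GFP knock-in animals, with GFP at a transcription factor gene of the neuroepithelium, bred with wild-type mice that the study's methods give as CD1 or mixtures of CD1 and C3H, and cells were released from minced whole tissue with trypsin, sorted for GFP and captured on the BD Rhapsody system. Tissue, age and library differed together between the tail and brain groups and cannot be told apart, and the number of mice behind each library is not given in the sources used here. The sort selected GFP+ cells, so the shares below describe the sorted cells and not the tail. No reporter transcript was among the genes listed for the tail library.

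Fibroblasts are the mesenchymal cells that secrete and remodel the connective tissue matrix. Collagen I and III form the main fibres of dermis, tendon and fascia, collagen VI forms beaded filaments around cells, and small proteoglycans such as decorin and lumican set fibre width. In young skin the fibroblasts of the upper dermis respond to Wnt signals and contribute to hair follicles, those of the lower dermis express Dlk1, and those of the fascia and of vessel walls express Pi16, Cd34 and Ly6a.

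No kept tail cell had a sum of the 3 rule genes between 9 and 13 molecules. Members carried 13 to 833 of these molecules, with a median of 93.5, and 133 of them carried 40 or more. Just inside the threshold lay cells with 13, 13 and 14 molecules, and just outside lay cells with 9, 7 and 7. Of the other tail cells, 1665 (92.9%) had none, 106 had 1 and 21 had 2 or more. All 3 genes were found in 169 members, and they made up 6.65% of all member molecules and 0.00727% of the molecules of the other cells. These values chose the members and are given as a description. In the brain library 2 of 7988 kept cells (0.0250%, 0.00303 to 0.0904) met the same rule, with 124 and 19 molecules, and the next cell had 4.

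**Figure D1:**
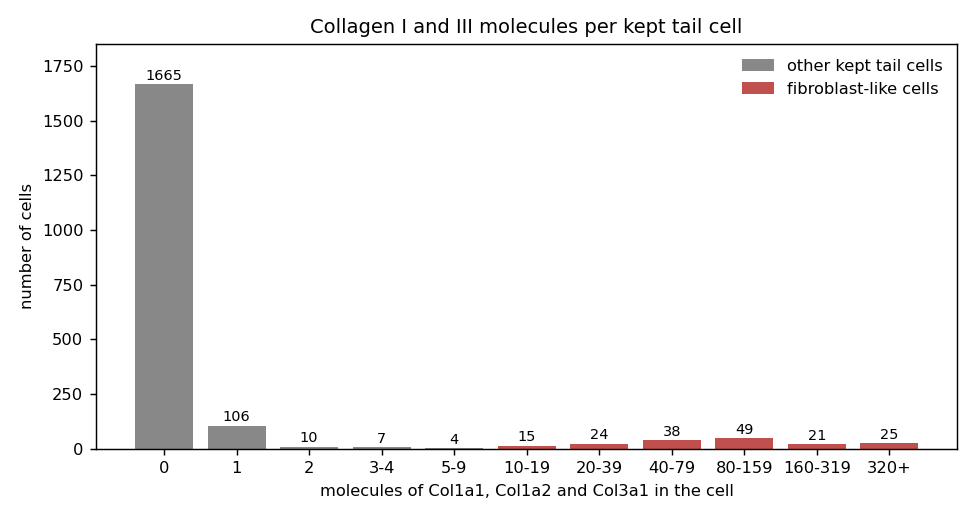
Number of kept tail cells (vertical axis) by their molecules of Col1a1, Col1a2 and Col3a1 (horizontal axis, bins of unequal width), with other cells in grey and fibroblast-like cells in red. The numbers above the bars are cells: 4 cells lay at 5 to 9 molecules and 15 at 10 to 19, between the 1665 cells at 0 and the 133 members with 40 or more.

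Members were deeper than the rest. They held 400 to 7106 molecules with a median of 1991.5, against 1245.5 for the other tail cells, and a median of 1095.5 genes against 815. The mitochondrial share had a median of 9.02% in members and 13.1% in the others. The tail file held 2469 barcodes and the brain file 12111, of which 29 were shared, and 3 members carried a shared barcode. Scrublet called 5 kept tail cells doublets (0.255%), 2 of them members. None of the members reached 10 molecules of the basal keratins Krt5 and Krt14, which 66 other cells did (keratin cells). Over 9 neuron markers 7 members reached 10 molecules, as did 117 other cells (neuron-list cells). Without Gap43, a growth cone gene, the number of such members was 0.

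The rule genes are Col1a1 (ENSMUSG00000001506, chr11:94936224-94953042), Col1a2 (ENSMUSG00000029661, chr6:4504814-4541544) and Col3a1 (ENSMUSG00000026043, chr1:45311538-45349706), all on the plus strand of GRCm38 in GENCODE vM21. To place the members' genes on the genome, the 120 bases before the annotated start are shown for Col3a1, for Twist2 (ENSMUSG00000007805, chr1:91801461-91848028), a mesenchymal repressor that 78 members and 4 other cells expressed, and for Dlk1 (ENSMUSG00000040856, chr12:109452823-109463336), a lower dermis marker found in 109 members. The sequences are from RefSeq on GRCm38.p6, 5′ to 3′ on the plus strand, with capitals at TATAAA or CCAAT, searched on both strands.
Col3a1: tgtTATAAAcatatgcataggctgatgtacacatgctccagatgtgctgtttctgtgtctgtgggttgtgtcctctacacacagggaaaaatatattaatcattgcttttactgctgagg
Twist2: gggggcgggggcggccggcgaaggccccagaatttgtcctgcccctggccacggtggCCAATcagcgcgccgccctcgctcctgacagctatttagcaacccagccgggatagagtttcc
Dlk1: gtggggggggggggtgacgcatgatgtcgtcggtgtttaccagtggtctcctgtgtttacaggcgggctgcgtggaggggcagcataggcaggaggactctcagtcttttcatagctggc
They cover chr1:45311418-45311537, chr1:91801341-91801460 and chr12:109452703-109452822. TATAAA stood 117 to 112 bases before the Col3a1 start and CCAAT 63 to 59 bases before the Twist2 start. Over 10668 promoters whose start matched in both annotations, TATAAA was found in 7.01% of windows of this length and CCAAT in 22.9%. Among 67 such promoters of genes called higher in members the shares were 5.97% and 20.9%.

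Molecules were summed over the members and over the other tail cells and scaled to the total of each group, in the usual CPM unit. A gene was called when the whole 95% interval of its ratio lay beyond 4-fold, out of 8233 genes with at least 50 molecules over both groups, without the rule genes. In members 194 genes were called higher (2.36%) and 356 lower (4.32%). The median gene tested had a log2 ratio of -0.37. When ratios were centred on the median gene, 249 genes were higher and 267 lower. With 1 tail library there is no replicate and no test, and all intervals cover counting error only. The members were chosen by collagen genes of the same cells, so ratios of genes that go with collagen describe the choice. A gene nearly absent from the other cells could reach 50 molecules only through the members. For such genes a call of higher was fixed by this filter. Counts of list genes called higher are therefore given as a description.

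The 10 genes with the largest ratios, ranked by the lower bound of the interval, were genes of the matrix and of mesenchymal cells. Dpt, which codes for the matrix protein dermatopontin, had 146 molecules in 65 members and 0 in the other cells, at least 298-fold higher against a floor of 3 counts over those cells. Tnmd, a tendon and ligament membrane protein, had 104 molecules in 14 members and 0 elsewhere, at least 212-fold higher. Ctsk, the collagen-degrading cathepsin K, and Cd248, a stromal surface receptor, were found in 44 and 46 members and in no other tail cell, at least 141-fold and 139-fold higher by the same floor. The lower ends of the 95% intervals, by which the genes were ranked, were 239 for Dpt, 169 for Tnmd, 111 for Ctsk and 109.7 for Cd248. Mfap5, a microfibril protein, had 181 molecules against 1. The remaining 5 were Col6a2, Ogn, Col6a1, Twist2 and Aspn, with ratios of 267 to 472.

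Of the 10 general fibroblast markers, the 7 that the rule did not use were all called higher, with a median log2 ratio of 5.21. Dpt, Mfap5 and Twist2 had 0, 1 and 4 molecules in the other cells, so they were tested only through the members. The 7 markers summed to 5758 CPM in members and 194 CPM in the other cells (29.7-fold, 26.9 to 32.9), and 157 members had at least 1 molecule. Pdgfra, the PDGF receptor of fibroblasts, had 0 to 5 molecules per member with a median of 0 and was found in 55 members and 16 other cells. Lum, which codes for lumican, had a median of 1 and a highest value of 11, in 89 members and 49 other cells (28.7-fold, 21.1 to 39.6). Dcn, which codes for decorin, had a median of 2.5 and a highest value of 32 and was found in 119 members (69.2%). Of the 66 keratin cells 43 (65.2%, 52.4 to 76.5) also carried Dcn, at 1017 CPM against 2372 CPM in members, and after thinning to 800 molecules the shares were 39.4% (27.6 to 52.2) in keratin cells and 62.2% (54.3 to 69.6) in members. Those keratin cells had a median of 2297.5 molecules, and 9 of them (13.6%, 6.43 to 24.3) had a molecule of a rule gene, against 3 of 117 neuron-list cells (2.56%, 0.532 to 7.31) with a median depth of 1693.

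Beyond the rule genes, the fibre-forming collagens called higher were of types V and XI. Of 8 such genes 6 were tested and 3 called higher, with a median log2 ratio of 3.21. Col5a2 had a median of 3 molecules and a highest value of 24 per member, in 152 members, and was 19.8-fold higher (17.1 to 23.0). Col5a1 was 41.0-fold higher (32.8 to 51.7), and Col11a1, found in 47 members, 14.4-fold. Col2a1, the cartilage collagen, was not called, at 3.41-fold (2.88 to 4.05), and was found in 20 members, with up to 63 molecules in 1 cell, and in 275 other cells.

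Collagen VI was found in nearly every member. Col6a2 (ENSMUSG00000020241, chr10:76595762-76623630) had a median of 7 molecules and a highest value of 31, in 164 members, and was found in 9 other tail cells. Col6a1 and Col6a3 had medians of 4 and 2 and were found in 155 and 132 members. Col12a1 and Col14a1, which sit on fibre surfaces, were 25.4-fold and 68.0-fold higher. In all, 9 of 12 fibril-associated, beaded and transmembrane collagens tested were called higher and 0 lower, with a median log2 ratio of 4.49. The network and basement membrane collagens differed: 0 of 7 tested were called, with a median of 1.51, and Col4a1 was 2.12-fold higher (1.84 to 2.43).

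The proteoglycans and glycoproteins that bind collagen were high as well. Of 10 proteoglycan genes tested 8 were called higher, with a median log2 ratio of 4.72. Bgn (biglycan) had a median of 2 molecules and a highest value of 29 and was found in 131 members and 12 other cells. Ogn (osteoglycin) was found in 85 members and 4 other cells. Of 23 matrix glycoproteins tested 14 were called higher and 0 lower, with a median log2 ratio of 3.38. Sparc, a collagen-binding glycoprotein, was found in every member, with 1 to 126 molecules and a median of 15. It was also found in 892 other tail cells and was 10.4-fold higher in members (9.88 to 10.96). Postn (periostin), Fbn2 (fibrillin-2) and Nid1 (nidogen-1) were 59.3-fold, 34.2-fold and 46.2-fold higher. Fn1, the fibronectin gene, was 4.26-fold higher (3.53 to 5.14), and the interval reached below 4.

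The genes that fold, cut and crosslink collagen were split. Of 20 tested 10 were called higher and 0 lower, with a median log2 ratio of 2.40. Serpinh1, the collagen chaperone HSP47, had a median of 4 molecules and a highest value of 29 in 164 members and was 6.26-fold higher (5.73 to 6.84). Lox, the crosslinking lysyl oxidase, was found in 84 members and 12 other cells, and Pcolce, an enhancer of procollagen cleavage, in 77 members. Crtap, P3h1, Fkbp10, P4ha2 and Adamts2 were 10.0-fold to 14.9-fold higher. The general secretory genes P4hb and Ppib were not called, at 3.99-fold and 1.64-fold.

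Among 14 proteases and inhibitors tested 5 were called higher, namely Mmp2, Mmp11, Ctsk, Htra1 and Serpinf1. Timp2 and Timp3, inhibitors of matrix proteases, were not called, at 3.08-fold and 1.41-fold. Among 20 receptors tested 8 were called higher and 1 lower. The 2 discoidin receptors for collagen lay on opposite sides: Ddr2 was found in 50 members and 5 other cells (78.3-fold, 31.9 to 249), and Ddr1 in 16 members and 643 other cells, 9.14-fold lower in members (5.60 to 16.1). Tgfbr2 and Tgfbr3, TGF-beta receptors, were 13.3-fold and 15.1-fold higher, and Tgfbr1 was not called, at 0.843-fold. Cdh11, a mesenchymal cadherin, and Thy1 were 10.7-fold and 64.0-fold higher.

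**Figure D2:**
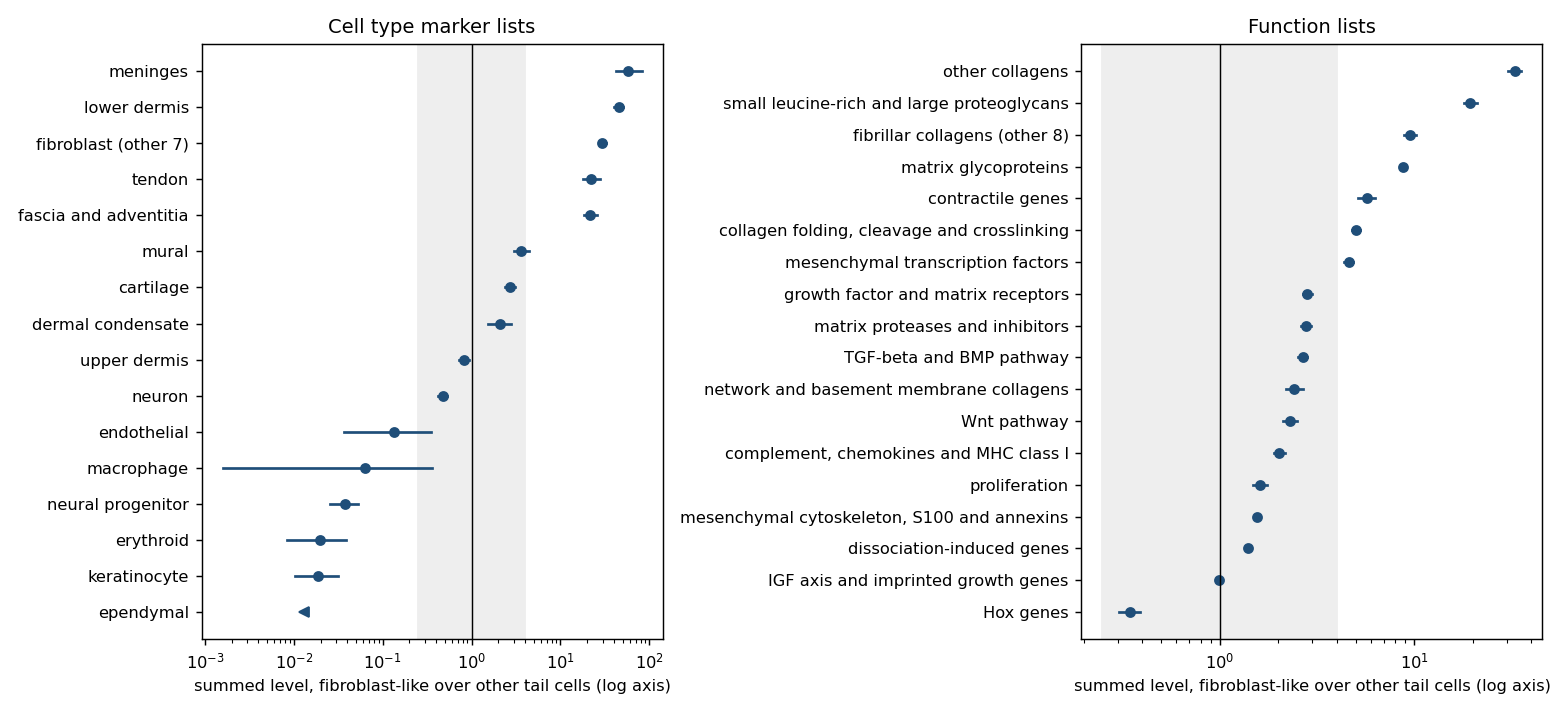
Ratio of the summed level of each gene list in fibroblast-like cells over the other kept tail cells, on a log axis, for cell type marker lists (left) and function lists (right). Points are ratios, lines are 95% counting intervals, the grey band spans 4-fold in both directions, and the arrowhead marks the upper bound where members had 0 molecules. The meninges list rests on Ogn, with 309 of its 400 member molecules, and the mural list largely on a few cells described in the text.

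Of the 35 genes in a list of mesenchymal transcription factors, 16 were tested, 8 were called higher and 0 lower, with a median log2 ratio of 2.31. The 8 not called included Klf4 and Zeb2 at 2.96-fold and 2.83-fold, Zeb1 at 1.28-fold, Ebf2 at 0.861-fold, and Sox9 and Msx1, at ratios of 0.346 and 0.104. Twist2 had a median of 0 and a highest value of 14 molecules and was found in 78 members (45.3%). Twist1 was found in 91 members and 11 other cells (81.7-fold, 47.5 to 152), Osr2 in 59 and Meox2 in 34 members. Prrx1, Prrx2, Runx1 and Creb3l1, a factor that drives collagen transcription, were called higher too. En1, with 33 molecules against 2, had too few molecules to be tested. When every cell was thinned to 800 molecules, Twist2 was found in 54 of 164 members (32.9%, 25.8 to 40.7) and in 1 of 1481 other cells (0.0675%, 0.00171 to 0.376).

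The list of the IGF axis and of growth genes expressed from 1 parental copy held 19 genes. Of 17 tested 8 were called higher and 1 lower, with a median log2 ratio of 2.26. Scaled to the group totals, its summed level did not differ beyond counting error (0.993-fold, 0.973 to 1.01). It was 1.245-fold (1.22 to 1.27) when ratios were centred on the median gene and 0.909-fold as a mean over cells. Without H19 and Igfbp5, left out after their values were seen, the sum by group totals was 6.64-fold higher (6.39 to 6.89). Dlk1, which codes for a Notch-like surface protein, had a median of 3 molecules and a highest value of 67, in 109 members and 44 other cells (102-fold, 83.0 to 126). Mest, Plagl1, Cdkn1c and Meg3 were 16.6-fold, 17.0-fold, 10.8-fold and 6.96-fold higher, whereas Grb10 and Peg3, also expressed from 1 copy, were not called, at 3.31-fold and 3.12-fold. Igfbp4 and Igfbp7, which bind IGFs, were 9.06-fold and 8.62-fold higher. Igf1 was found in 39 members (81.0-fold, 39.7 to 193), and Igf2 was not called, at 1.78-fold. H19, the noncoding RNA next to Igf2, had a median of 14 and a highest value of 167 molecules in 150 members and 10959 CPM in members against 12547 CPM in the others. Its ratio of 0.873 became 1.095 when ratios were centred on the median gene, so its direction was set by the scaling. Igfbp5 was found in 1289 other tail cells and 89 members and was 8.34-fold lower in members (7.67 to 9.07).

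Most signalling genes did not pass the 4-fold rule, but over all genes tested only 2.36% were called higher. The summed Wnt list was 2.30-fold higher in members (2.12 to 2.49), and the TGF-beta and BMP list 2.67-fold (2.55 to 2.80). Of 14 Wnt genes tested 2 were called higher, the ligand Wnt5a (9.71-fold, 6.21 to 15.4) and the inhibitor Wif1 (35.9-fold, 16.8 to 88.0). Of 18 TGF-beta and BMP genes tested 3 were called higher and 1 lower. Fstl1, a secreted BMP modulator, had a median of 5 molecules and a highest value of 60, in 162 members (16.8-fold, 15.2 to 18.5). Ltbp4, which stores TGF-beta in the matrix, and Gdf10 were also higher, and Id4, a BMP target of neural cells, was 10.98-fold lower (7.62 to 16.4). Among complement, chemokine and MHC class I genes 3 of 11 tested were called higher, namely Serping1, Cxcl1 and Cxcl12. Vim, the mesenchymal filament gene, was found in 164 members and in 1240 other cells and was only 1.71-fold higher (1.61 to 1.81), whereas Lgals1 (galectin-1) was found in 161 members and 112 other cells (41.9-fold, 36.2 to 48.5). Dissociation-induced genes such as Fos and Jun were not called (0 of 8 tested, median log2 ratio of 0.59), and neither were proliferation genes (0 of 16 tested, median of 0.64). The summed levels of these 2 lists were nevertheless higher in members, at 1.40-fold (1.35 to 1.45) and 1.61-fold (1.48 to 1.76).

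Of the 5 ependymal markers 4 were called lower in members, as were 5 of the 8 neural progenitor markers and 6 of the 9 neuron markers, and 0 of these lists' genes were called higher. Sox1 (ENSMUSG00000096014, chr8:12395295-12400126), the reporter's gene, had 1 molecule in 1 of 172 members (0.581%, 0.0147 to 3.20) and was found in 191 of 1792 other tail cells (10.7%, 9.27 to 12.2). After thinning to 800 molecules the shares were 0.610% (0.0154 to 3.35) and 6.55% (5.34 to 7.93). The keratin cells had Sox1 in 0 of 66 cells, for which 3 counts of the total give a limit of 4.55%. The exact interval had an upper end of 5.44%. The member share lay below both, but 66 cells are too few to set limits near that share. The part of free RNA was not tested. Sox2 was found in 4 members and 639 other cells. Rtn1, a neuronal and neuroendocrine gene, had 0 molecules in members against 1908, at least 104-fold lower against a floor of 3 counts over the members, and Foxj1 and Fam183b, genes of motile cilia, were also at 0 in members, at least 41.4-fold and 32.2-fold lower. Krt14, at least 51.6-fold lower, Krt5, Mt3, Fabp7, Mt2, Nkx6-1 and Pax6 completed the 10 lowest genes. The ends of the 95% intervals nearer 1 were 84.5-fold lower for Rtn1, 33.6 for Foxj1, 26.1 for Fam183b and 41.9 for Krt14. Krt5 and Krt14 are close relatives of other keratin genes, and reads shared with them cannot be told apart here.

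All 5 ependymal markers were at 0 in members. The 8 neural progenitor markers summed to 81 CPM against 2149 CPM, the 10 keratinocyte markers to 35 against 1876, and the 4 erythroid globins to 20 against 1033. Markers of macrophages and endothelial cells had 1 and 4 molecules in all members, those of skeletal muscle 8, and those of melanocytes and notochord 0. The adipocyte list had 19 molecules, 12 of them Fabp4 in 1 member. The bone list had 27, at 68.2 CPM against 11.2 CPM in the others (6.12-fold higher, 3.45 to 10.8), and 0 of its genes were tested. The 9 neuron markers, of which 3 were not called, summed to 667 CPM in members and 1413 CPM in the others (2.12-fold lower, 1.87 to 2.41), and 63 members (36.6%) had a molecule of them. Gap43, a growth cone gene, made up 252 of these 264 molecules and was 2.12-fold higher in members (1.83 to 2.45), in 56 members. The other 8 neuron markers summed to 30.3 CPM against 1112 CPM (36.7-fold lower, 20.97 to 71.1) and were found in 11 members. Nes, the progenitor marker nestin, had 15 molecules in 12 members and was not called (0.592-fold, 0.323 to 1.01). Over 20 ependymal, progenitor and neuron markers, from which Nes and Gap43 were left out after their values were seen, 154 members (89.5%) had 0 molecules, 13 had 1 and 5 had 2 or more, with a highest value of 6, whereas 11.6% of other tail cells had 0. The part of free RNA or of cell pairs in these molecules was not tested.

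A molecule of the 8 markers of smooth muscle cells and pericytes was found in 46 members (26.7%). In 3 members, singled out after the values were seen, the levels were high. One member held all 24 Myh11 molecules of the members, with 29 of Acta2, 17 of Actg2 and 11 of Cnn1, all smooth muscle genes, beside 20 rule gene molecules. A further 2 members held 9 and 5 molecules of Rgs5, a pericyte gene, beside 17 and 14 rule gene molecules. The mural list, which holds Myh11, Acta2 and Rgs5, summed to 414 CPM in members and 114 CPM in the others (3.63-fold, 2.98 to 4.42), and 0 of its 3 genes tested were called.

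Of the 6 contractile genes tested 4 were called higher, namely Myl9, Cnn2, Tpm1 and Tpm2, with a median log2 ratio of 2.90. Tpm1 was found in 84 members and 194 other cells. Of the 734 molecules of the 11 contractile genes in members, 1 member held 184. The member with Myh11 held 19 of the 59 Tpm2 molecules, which were found in 25 members.

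Markers of fibroblast kinds in skin and of related connective tissue were tested as lists. All 4 lower dermis genes tested were called higher (Dlk1, Mgp, Mest and Igf1), with a median log2 ratio of 5.35 and a summed ratio of 45.1 (40.0 to 51.1). All 4 fascia and adventitia genes tested were too (Pi16, Cd34, Ly6a and Sema3c), with a median of 5.02, but 61 members had a molecule of that list. All 4 tendon genes tested (Tnmd, Fmod, Thbs4 and Kera) were called higher, and 68 members had a molecule of that list. Tnmd, with 104 molecules in members and 0 elsewhere, was tested only through the members. The lower dermis, fascia and tendon lists held 5, 7 and 7 genes, and those not tested had too few molecules. Of 5 upper dermis genes 1 was called, Crabp1, found in 64 members and 26 other cells (28.4-fold, 19.2 to 43.3), and the median log2 ratio was 0.36. The meninges list had 2 of 2 genes tested called higher, Ogn and Crabp2. Among its factors, Foxc1, Foxc2 and Tbx18 had 3, 6 and 13 molecules in members. These factors had too few molecules to be tested, but the level of each was higher in members than in the other cells.

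Hox genes, which record position along the body axis, were lower in members as a group but not evenly. Of 23 tested 0 were called higher and 4 lower (Hoxb8, Hoxb13, Hoxd10 and Hoxd11), with a median log2 ratio of -2.0, and the sum was 642 CPM against 1861 CPM (2.90-fold lower, 2.56 to 3.31). The B and D clusters were 5.84-fold lower (4.57 to 7.57) and 6.50-fold lower (4.09 to 11.04), and the A cluster was 2.17-fold lower (1.72 to 2.76). The C cluster was at 232 CPM in members and 166 CPM in the others (1.40-fold higher, 1.101 to 1.75). Among the most posterior genes, Hoxb13 was found in 9 members and 579 other cells and was 13.1-fold lower (7.11 to 27.5), whereas Hoxc13 (ENSMUSG00000001655, chr15:102921103-102928814) was found in 32 members and 8.87% of other cells at a ratio of 1.36 (0.967 to 1.87). In the brain library Hoxb13 had 0 molecules. Whether the counting used strand is not given in the sources used here, so reads from antisense transcripts within the Hox clusters cannot be told apart.

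**Figure D3:**
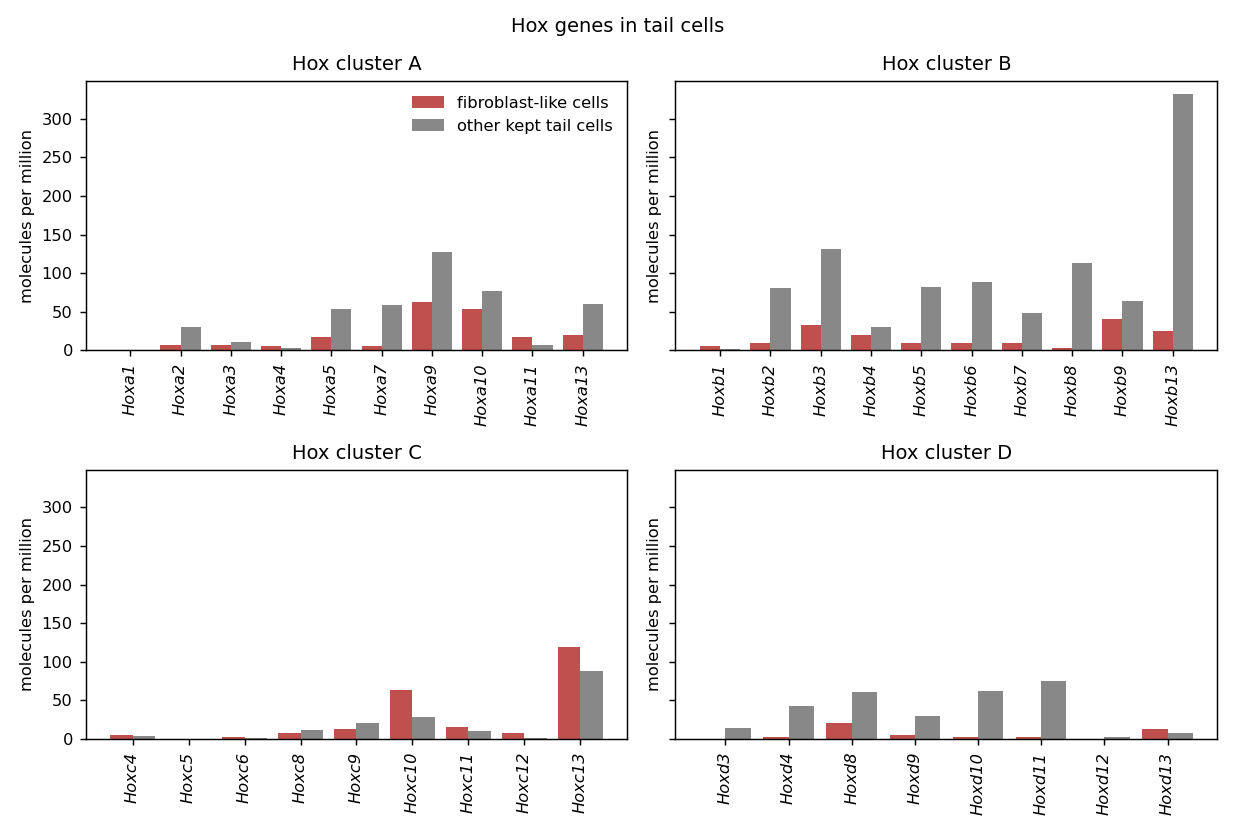
Level of each Hox gene in CPM (vertical axis) in fibroblast-like cells (red) and other kept tail cells (grey), in the order of each cluster. Hoxb13 reached 332 CPM in the other cells and 25.3 CPM in members, whereas Hoxc13 was at 118.7 CPM in members and 87.6 CPM in the others.

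Members came from mice of both sexes. Xist, the RNA of the inactive X chromosome, was found without any Y-linked molecule in 53 members, and 37 members had Y-linked molecules without Xist. No member had both, and 82 had neither. Among other tail cells the numbers were 500, 235, 3 and 1054.

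The members were not uniform. Clustering on 1000 variable genes without a proliferation list gave 5 subclusters, numbered by size, and a name was given only where at least 3 markers of 1 list counted and no other cell type list had as many. Markers were counted if their CPM, with 20 added to both sides, was 2-fold or more above that of the remaining members and 10% or more of the subcluster carried them. The genes that define a subcluster are given as a description.

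Subcluster 1 held 49 members (28.5%) and was lower dermis-like, with 4 of 5 markers, Dlk1, Mgp, Fmo1 and Igf1. Dlk1 was found in 44 of its cells (89.8%), Meg3 in 45 and Mest in 42, against 52.8%, 55.3% and 48.8% of the other members. Its further leading genes were Ogn, the growth factor gene Ptn, the actin regulator Tpm1, H19 and Agtr2, an angiotensin receptor found in 31 of its cells. The smooth muscle and pericyte cells named above lay here.

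Subcluster 2 held 42 members (24.4%) and was upper dermis-like by 4 of 7 markers, Crabp1, Axin2, Lef1 and Col23a1, none of which was among its 10 leading genes. It was led by Twist2, found in 38 of its cells (90.5%) and 30.8% of the other members, and by Tcf4, Mmp11, Fgfr1, Cxcl14, Nkd1, Cyp26b1 and Trps1. Of 28 Wnt genes 10 counted there, among them the targets Axin2, Lef1 and Nkd1 and the inhibitors Dkk1, Wif1 and Frzb. Axin2 and Lef1 are also upper dermis markers. Other lists counted there too, with 8 of 35 mesenchymal transcription factors, 5 of 26 TGF-beta and BMP genes and 4 of 39 Hox genes. The share of all genes that counted is not given here. Dkk1, a gene of the dermal condensate of the hair follicle, was found in 12 of its cells and in 2 other members. Sox18, another condensate gene, reached 6 and 7 molecules in 2 of its cells. Its rule gene molecules had a median of 43.5, against 93 to 132.5 in the other subclusters, but its cells were the shallowest, with a median of 1669.5 molecules. As a share of molecules the rule genes made up 3.55% here, 3.79% in subcluster 5 and 7.15% to 9.32% in the others. Dlk1 was found in 8 cells of subcluster 2.

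Subcluster 3 held 34 members (19.8%) and was led by cell cycle genes, Hmgb2, H2afz, Birc5, Top2a, Pclaf, Tuba1b and Cks2, and by the enkephalin gene Penk. Mki67 or Top2a was found in 21 of its cells (61.8%, 43.6 to 77.8), against 3 of 49, 3 of 42, 3 of 26 and 5 of 21 cells in the others. It met no cell type list by the rule. Cxcl14 and Twist2 were found in 24 and 23 of its cells and Dlk1 in 22, so genes of subclusters 1 and 2 both occurred there. Over all members Mki67 or Top2a was found in 12.8% (8.10 to 18.9) of 164 cells thinned to 800 molecules and in 20.3% unthinned, against 9.72% (8.26 to 11.3) and 12.1% of the other tail cells and 28.8% and 45.5% of keratin cells.

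Subcluster 4 held 26 members (15.1%) and carried cartilage and tendon genes. Of 8 cartilage markers 6 counted, and of 7 tendon markers 4. By the naming rule alone it would be cartilage-like, but its leading genes came from both lists, so it was left unnamed. Col11a1 was found in 25 of its cells (96.2%), Col2a1 in 16 and Col9a1 in 10. Tnmd was found in 9, Kera in 7 and Fmod in 15. The genes met in the same cells: of 14 members with Tnmd 9 also had Col2a1, and of 20 members with Col2a1 7 had Acan and 7 had Sox9, the cartilage transcription factor. Scx, a tendon transcription factor, was found in 2 of its cells, and bone markers other than Runx2 were near 0, with 3 molecules each of Sp7 and Alpl in all members.

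Subcluster 5 held 21 members (12.2%) and was fascia and adventitia-like, with 7 of 7 markers. Pi16 (ENSMUSG00000024011, chr17:29317680-29330593) and Ly6a (ENSMUSG00000075602, chr15:74994877-74998031), the stem cell antigen gene, were each found in 20 of its cells (95.2%) and in 1.32% and 3.97% of the other members. Fbn1, Mfap5 and Klf4 were found in all 21, Cd34, Sema3c and Nov in 19 each, and Dpp4 in 4. Ly6a and Ly6c1 are close relatives, and reads shared between them cannot be told apart. Gap43 was found in 19 of its cells, 13 of which had 5 or more molecules, and 6 of the 7 members that reached the neuron list lay here. Dlk1 was found in all 21 and Cxcl14 in none. These cells were the deepest, with a median of 3176 molecules against 1669.5 to 2521 in the other subclusters. The same 21 cells formed a subcluster at a lower and a higher resolution and with another random start, whereas after thinning to 800 molecules they lay within a group of 46.

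The other subclusters were kept in part. At a resolution of 1.0 and with another random start, 48 and 47 of the 49 cells of subcluster 1, all 42 of subcluster 2, all 34 of subcluster 3 and 21 of the 26 of subcluster 4 stayed together. At a resolution of 0.3, all cells of subclusters 1 and 4 fell in a group of 76, and all of subcluster 2 with 33 of subcluster 3 in a group of 75. After thinning, 24 of 44 cells of subcluster 1 and 19 of 26 of subcluster 4 shared a group of 47, and 41 of 41 of subcluster 2 and 24 of 32 of subcluster 3 shared a group of 71. The adjusted Rand index against the 5 subclusters, which is 1 for equal groupings, was 0.919 and 0.906 in the first pair of settings, 0.573 at the lower resolution and 0.347 after thinning.

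**Figure D4:**
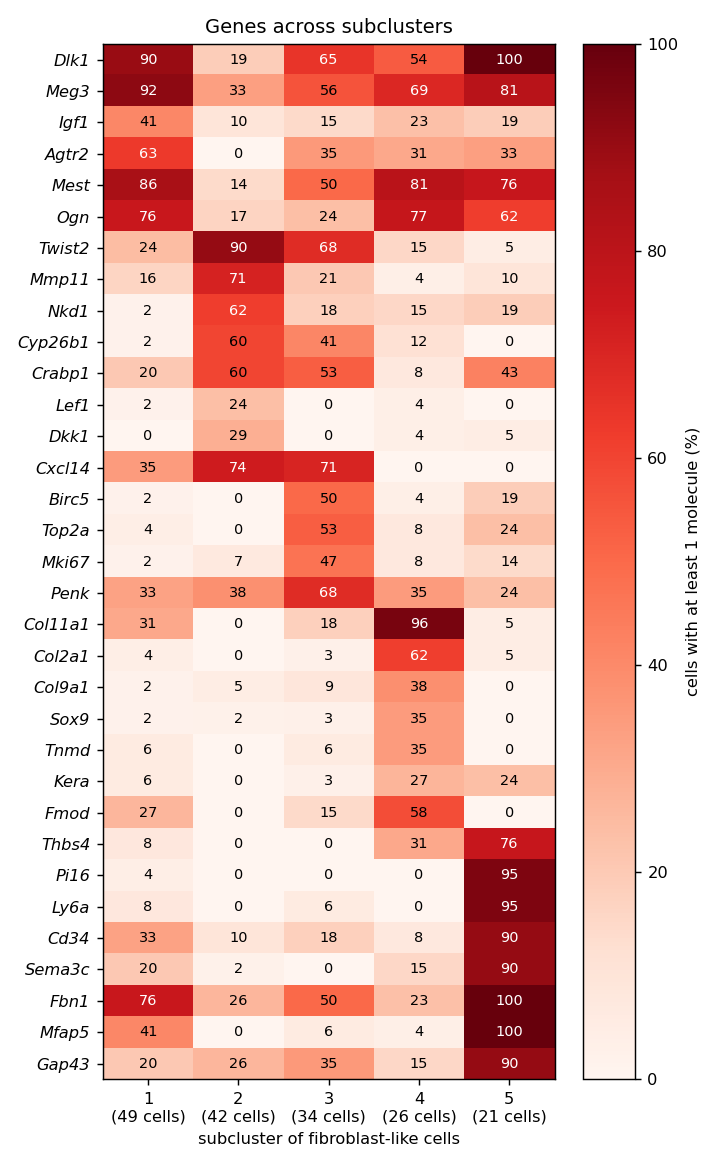
Share of cells with at least 1 molecule (percent, colour and number) for leading genes and list markers (rows) in the 5 subclusters of fibroblast-like cells (columns). Twist2 was found in 90.5% of subcluster 2 and 4.76% of subcluster 5, and Pi16 in 95.2% of subcluster 5 and 0% to 4.08% of the others.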

How the data were processed

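Per the file headers, the authors made counts of molecules per gene and cell on GRCm38 with the BD Rhapsody WTA software (Analysis Pipeline 1.10.1) and GENCODE vM19. The study's methods name a later pipeline version and other tools as well. The deposited error-corrected molecule counts were used as they are, and the uncorrected counts and read counts were not, except that uncorrected counts served as an alternative. As in the study, a cell was kept if its gene number lay above 200 and below 4000 and its mitochondrial share was below 40%. The rule for members, the marker lists and the function lists were chosen with earlier results of these data known. There was 1 library per tissue and so no replicate, test, p-value or standard error.

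Summed counts were scaled to the group total. Shares have exact Clopper-Pearson 95% intervals, ratios have conditional exact binomial 95% intervals, and a count of 0 was set to a floor of 3 counts over the group. The comparison was checked on simulated counts before use. Genes named are those of the lists (21 of cell type markers and 19 of functions), the 10 largest and 10 smallest ratios ranked by the bound nearer 1, and the 8 leading genes of each subcluster by the difference in mean log level. Other named features were chosen after their values were seen. Thinned shares used 800 molecules per cell, the 20th percentile of the other tail cells rounded down, which left out 8 members and 311 other cells. Members were clustered in scanpy 1.11.5 (log-normalised to 10000, 15 principal components, 15 neighbours, Leiden resolution of 0.6). Doublets, called by Scrublet at an expected rate of 0.05, were kept. TMM factors came from edgeR 4.0.16. Positions and identifiers were matched by symbol to GENCODE vM21 on GRCm38 and count from 1. Other scalings, thresholds, filters, cell choices and clusterings were tried as alternatives. One further marker list and the results that rest on it are not reported here.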

Additional observations from a re-analysis of the deposited data

How the results depend on the processing

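Counts of called genes stayed within 1.5 times under other collagen thresholds, scalings, averaging over cells, a mitochondrial limit of 20%, uncorrected molecules, doublet removal, and leaving out keratin cells or, chosen after seeing the data, the 7 members of the neuron list. A minimum of 200 molecules gave 62 genes higher and 217 lower, no minimum gave 389 higher, and a 2-fold rule gave 386 higher and 912 lower. These follow from the number of genes tested or the rule itself. The number of members ran from 157 to 176, and 171 were among as many cells ranked by collagen share. The share of members with Mki67 or Top2a was 20.3% unthinned, and that with Sox1 was 0% with another random start of the thinning and with a collagen minimum of 20. Clustering gave 3 subclusters at resolution 0.3 and 3 after thinning. The cause was not tested. Leaving out Gap43, also chosen after seeing the data, took the members among neuron-list cells from 7 to 0. The upper dermis list turned from 0.829-fold to 1.04-fold when ratios were centred on the median gene. Of 315 named genes tested, 0 called ones changed direction under 9 alternatives, and 0 to 18 changed their call. No paired analysis was possible because each group has 1 library and the result comes from no test.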
